A study of Homo sapiens with 18 samples.

Results

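The subunits of the human Mediator complex are encoded by the 32 genes described here, which were fixed as a list by complex membership and not by their values. Their members on the array were all probe sets that the annotation gave to a single one of these genes, 89 of 54675 probe sets in all, and these covered 30 of the 32 genes. MED6 and MED25 had no such probe set and were not analysed here. A probe set entered the tests of a time where its mean log2 signal over the 9 arrays of that time lay above log2(40), which is 5.32. This kept 67 member probe sets of 29 genes at 6 h, among 22455 of all genes, and 72 of 29 genes at 24 h, among 24307. The tail subunit MED24 was followed by 1 probe set given to it alone, 215337_at, with means of 3.98 at 6 h and 4.38 at 24 h. This probe set fell below the limit at both times. Another probe set lists MED24 among several symbols and was not named, so the level of MED24 is not settled here.

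SH-SY5Y, a human neuroblastoma line, had been differentiated in 10 μM retinoic acid over 7 days and then kept without it for 24 h in all groups, the untreated one included. Cells received 0, 1 or 5 μM cocaine for 30 min and were collected 6 or 24 h later, with 3 arrays per dose and time, 18 in all, each with RNA pooled from 3 dishes of the line. Since one cell line was used, p-values describe the spread between its cultures, and in such bulk RNA fewer cells with a transcript cannot be told apart from less transcript per cell. The comparisons ask whether cocaine changed the messenger RNA of Mediator subunits, within 6 h and within 24 h.

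Of the markers of noradrenergic and neuronal cells, PHOX2A, GATA3, HAND2, ISL1, DBH, STMN2 and GAP43 were above the signal limit at both times. TH, which encodes the rate-limiting enzyme of dopamine synthesis, was below it, with 3.50 at 6 h and 3.87 at 24 h, as were PTPRC, PECAM1, EPCAM, GFAP and COL1A2 of other cell types. At 6 h the untreated arrays were not alike. CYP26A1, which retinoic acid induces, was between 4.95 and 5.61 on the 6 arrays of cocaine-treated cells, against 5.01, 10.69 and 10.99 on untreated arrays 1, 2 and 3. The difference between the 3′ and 5′ control probe sets of ACTB, a measure of RNA integrity, was 0.49 to 0.54 at 5 μM and 0.60 to 0.72 at 1 μM, against 0.55, 1.12 and 0.89 on the same untreated arrays. The difference between 2 hybridisation controls, bioD minus cre, set all 3 untreated arrays apart at 6 h, with -1.64 to -1.50 on the cocaine arrays against -1.11, -1.06 and -1.02 on untreated ones, so untreated array 1 did not match the cocaine arrays in every measure. At 24 h CYP26A1 was 9.55 on untreated array 3 and between 4.92 and 6.31 on the other 8 arrays. Results at 6 h are also given without untreated arrays 2 and 3. That fit has 1 untreated array, whose spread is taken from the other groups, and its standard errors are larger. Its adjusted p-values do not tell a lost change from lost power, so its changes are given instead. It sets the mean of each cocaine dose against untreated array 1 and does not pair arrays by number, so replicate differences enter the changes. The part of the CYP26A1, ACTB and hybridisation control differences in the results was not tested.

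Mediator carries signals from transcription factors bound at enhancers and promoters to RNA polymerase II. Its head and middle modules, joined by the MED14 backbone, form the core that contacts the polymerase, and tail subunits are bound by many activators. The kinase module, with CDK8 or CDK19, cyclin C, MED12 and MED13 or MED13L, docks reversibly and keeps the polymerase from binding while attached. MED1, in the middle module, is the subunit through which retinoic acid, thyroid hormone and other nuclear receptors reach the complex.

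At 6 h after 5 μM cocaine, 1 probe set each of MED1, MED7 and MED13L was higher than in untreated cells at an adjusted p under 0.10, and no member probe set was lower. These 3 of 67 stood beside 1.57% of all probe sets called higher and 2.98% called in either direction. With the replicate number as a block in the fit, 4 were called higher and 8 lower, 17.9% of the members beside 18.6% of all probe sets (7.75% higher and 10.9% lower). The share of members called was thus close to that of all probe sets in the fit with the block, and so was the share with an unadjusted p under 0.05, with 12 members (17.9%) beside 17.2%. On 6 member probe sets (8.96%) all arrays at 5 μM lay above all untreated ones, and on 13 (19.4%) below, beside 8.09% and 13.1% of all probe sets. The count changed when single arrays were left out, as did that of all probe sets. It was 7 without untreated array 1 (10.4%, beside 10.8% of all probe sets) and 1 without untreated array 3 (1.49%, beside 0.294%). Without untreated array 2 it was 0, beside 0.129% of all probe sets. It was also 0 without array 1, 2 or 3 at 5 μM, beside 0.387%, 0% and 0.00445%. The median change of the 67 was -0.03 on the log2 scale, beside -0.02 over all probe sets, with 30 above and 37 below 0. Changes were small: 12 of the 67 exceeded 0.2 in size, and the 3 called probe sets alone exceeded 0.3.

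MED1 was read by 4 probe sets, all above the signal limit at both times. Probe set 225452_at had log2 signals of 8.67, 8.53 and 8.71 at 0 μM, 8.80, 8.85 and 8.97 at 1 μM and 9.13, 9.07 and 9.19 at 5 μM, all at 6 h. The 3 doses formed 3 ranges that did not overlap, in the order of the dose. The share of all probe sets with such an order was not counted. The mean was 9.13 ± 0.0628 at 5 μM and 8.64 ± 0.0942 at 0 μM (SD, n = 3 each), which gave a log2 fold change of 0.49 (SE 0.0711), or 1.40-fold, with an adjusted p of 0.0403 in limma and of 0.0119 with the block. Between same-numbered arrays the changes were 0.46, 0.53 and 0.48, and without untreated arrays 2 and 3 the change was 0.46.

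The other 3 MED1 probe sets did not pass the test. Signals of 203496_s_at at 6 h were 7.84, 7.78 and 8.03 at 0 μM, 8.20, 8.07 and 8.17 at 1 μM and 8.03, 7.86 and 8.23 at 5 μM, and the change at 5 μM was 0.16 (SE 0.102, adjusted p = 0.467). For 203497_at, signals were 9.79, 9.75 and 9.83 at 0 μM, 9.85, 9.84 and 9.97 at 1 μM and 9.85, 9.78 and 9.90 at 5 μM, with a change of 0.05 (SE 0.057, adjusted p = 0.677). Signals of 225456_at were 9.06, 9.06 and 9.13 at 0 μM, 8.92, 9.03 and 9.07 at 1 μM and 9.02, 9.05 and 9.04 at 5 μM, with a change of -0.05 (SE 0.0548, adjusted p = 0.707). In 203496_s_at and 203497_at the arrays at 5 μM overlapped with the untreated ones, and in 225456_at they lay just below them.

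**Figure D1:**
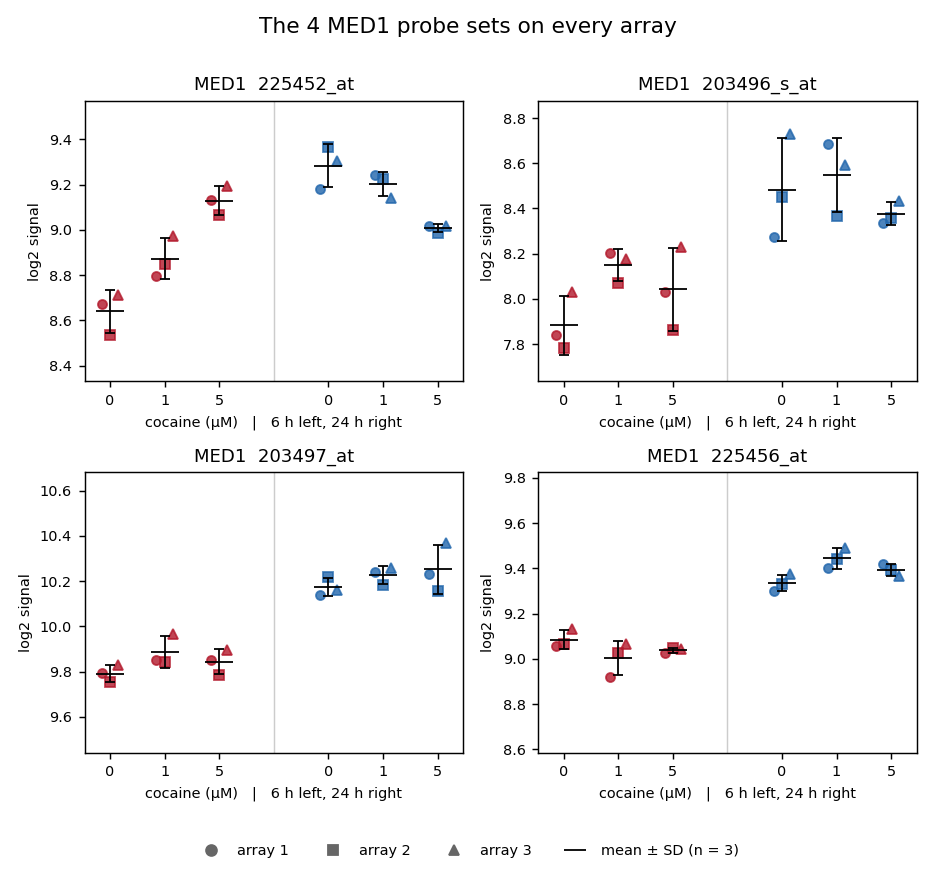
Log2 signal of the 4 MED1 probe sets on each of the 18 arrays, by cocaine dose in μM at 6 h (red) and 24 h (blue), with the mean ± SD of 3 arrays as black bars. Probe set 225452_at climbs with dose at 6 h, to 9.07 to 9.19 at 5 μM, and is lowest at 5 μM at 24 h, at 8.99 to 9.02, while the other 3 probe sets differ less between 5 and 0 μM at both times.

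The difference of 2 MED1 probe sets within each array was compared between doses. Probe set 225452_at was taken for its smallest p between the same doses at 6 h, so shifts of its pairs there are no separate support. The log2 signal of 225452_at minus that of 203497_at lay between -0.72 and -0.70 at 5 μM and between -1.22 and -1.11 at 0 μM at 6 h, a shift of 0.44. Against 225456_at the shift was 0.54 and against 203496_s_at 0.33, and in all 3 pairs the arrays of the 2 doses did not overlap. Each gave p = 0.1 in an exact permutation test (2-sided), the smallest value that 3 arrays against 3 allow, and 0.125 after adjustment over 10 pairs, those of MED13L and MED7 included. With the arrays paired by number the exact p was 0.25, again the smallest possible. Among pairs without 225452_at, 203497_at minus 225456_at also shifted with no overlap, by 0.10 (exact permutation p = 0.1). The pairs of 203496_s_at with 203497_at and 225456_at shifted by 0.10 and 0.20 and overlapped. With 3 arrays a dose this test cannot pass a threshold of 0.05, and no single value is given for the gene as a whole.

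MED13L, a kinase module subunit that is an alternative to MED13, was read by 5 probe sets, 3 of them above the limit at 6 h. Probe set 212208_at had 7.60, 7.34 and 7.45 at 0 μM, 7.77, 7.72 and 7.71 at 1 μM and 7.86, 7.98 and 7.79 at 5 μM, and again no array of a higher dose fell within the range of a lower one. Its change at 5 μM was 0.41 (SE 0.0778), or 1.33-fold, with an adjusted p of 0.061 in limma and of 0.0273 with the block. The other 2 above the limit had negative changes. Signals of 212207_at were 7.64, 7.76 and 7.59 at 0 μM, 7.39, 7.55 and 7.44 at 1 μM and 7.50, 7.52 and 7.37 at 5 μM, a change of -0.20 (SE 0.0717, adjusted p = 0.208, and 0.0531 with the block). Those of 212209_at were 7.29, 7.52 and 7.32 at 0 μM, 7.07, 7.26 and 7.14 at 1 μM and 7.23, 7.35 and 7.21 at 5 μM, a change of -0.12 (SE 0.0801, adjusted p = 0.498). The 2 below the limit at 6 h entered no test there and were higher at 5 μM. Probe set 242911_at, just under the limit, had 4.91, 4.85 and 5.07 at 0 μM, 5.22, 5.24 and 5.00 at 1 μM and 5.60, 5.55 and 5.48 at 5 μM, so that the arrays at 5 μM lay above all others. For 216109_at the means were 3.39 at 5 μM and 3.02 at 0 μM.

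MED7, which with MED21 forms a hinge of the middle module, was read by 3 probe sets. Probe set 231272_at had 5.93, 5.80 and 5.66 at 0 μM, 5.76, 6.01 and 5.68 at 1 μM and 6.25, 6.32 and 6.42 at 5 μM. Only the arrays at 5 μM stood apart, with a change of 0.53 (SE 0.101), or 1.45-fold, and an adjusted p of 0.061 in limma and of 0.0284 with the block. This probe set lay close to the signal limit of 5.32. The other MED7 probe sets, 204349_at and 204350_s_at, had changes of -0.09 (SE 0.0927, adjusted p = 0.651) and 0.01 (SE 0.0685, adjusted p = 0.937).

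Within each array, MED13L 212208_at shifted by 0.62 against 212207_at and by 0.53 against 212209_at between 5 and 0 μM at 6 h, and MED7 231272_at by 0.63 against 204349_at and by 0.52 against 204350_s_at. In all 4 pairs the arrays of the 2 doses did not overlap, with p = 0.1 in the exact permutation test (2-sided). As for MED1, 212208_at and 231272_at were taken for their smallest p in the same comparison, so this is no separate support. The share of such pairs over all genes was not counted. Without untreated arrays 2 and 3 the changes of MED13L 212208_at and MED7 231272_at were 0.28 and 0.41. Between same-numbered arrays, MED13L 212208_at changed by 0.26, 0.64 and 0.34 and MED7 231272_at by 0.32, 0.53 and 0.75. The annotation used here does not say which part of the transcript each probe set reads.

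**Figure D2:**
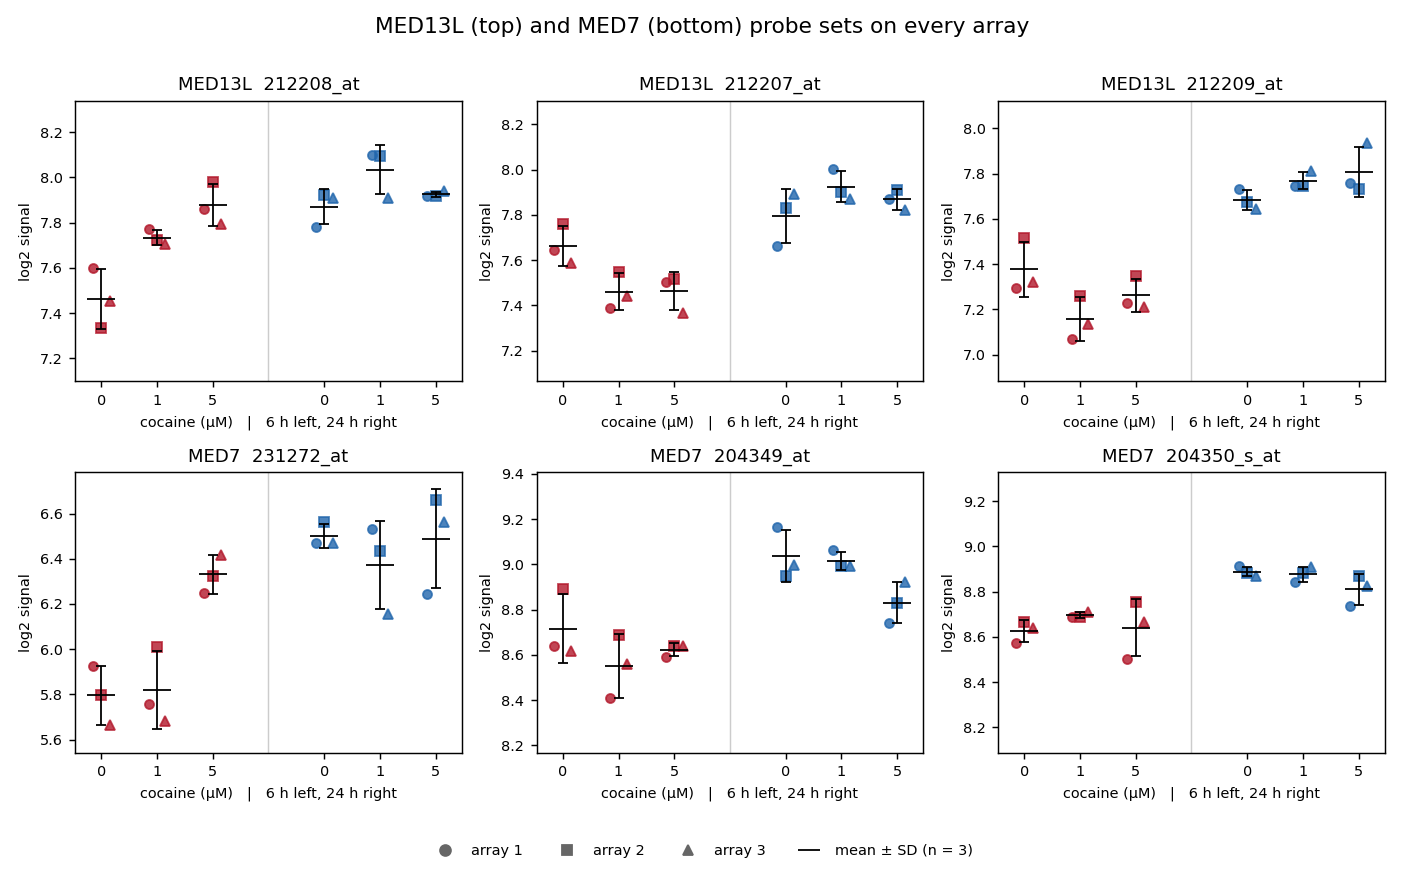
Log2 signal of the 3 MED13L probe sets above the signal limit (top row) and 3 MED7 probe sets (bottom row) on each array, by cocaine dose in μM at 6 h (red) and 24 h (blue), with the mean ± SD of 3 arrays as black bars. At 6 h, 212208_at is highest at 5 μM, at 7.79 to 7.98, and 231272_at at 6.25 to 6.42, and the other 4 probe sets shown are not.

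Probe sets of 1 gene often disagreed in direction. Of the 20 member genes with more than 1 probe set kept at 6 h, 11 (55%) had changes on both sides of 0, beside 56.8% of 5695 genes with several probe sets. The widest gaps between probe sets of a gene were 0.63 for MED7, 0.62 for MED13L and 0.54 for MED1, the 3 genes with a call, and CDK19 and MED23 came next with 0.32 each. Such a gap exceeded 0.5 in 3 of 20 member genes (15%) and in 8.55% of all genes with several probe sets. The call and the gap come from the same values, so neither supports the other.

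By module, the head had 10 genes with 23 probe sets at 6 h, none called, with changes between -0.21 and 0.14 and a median of 0.00. The head as listed here includes MED27, MED28, MED29 and MED30, and other assignments of genes to modules were not tried. The middle module had 9 genes with 18 probe sets, 2 of them called, and a median of 0.00. Both kept probe sets of the backbone gene MED14 had negative changes. In the tail, 7 of 9 probe sets of MED15, MED16 and MED23 had negative changes, with a median of -0.15 and no call. One of the 7, MED16 43544_at, changed by less than 0.01 in size and turned sign with quantile normalization, median centring or array weights, while the other 4 MED16 probe sets had changes from -0.23 to -0.03. The kinase module had 6 genes with 15 probe sets, 1 of them called, and a median of -0.07.

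**Figure D3:**
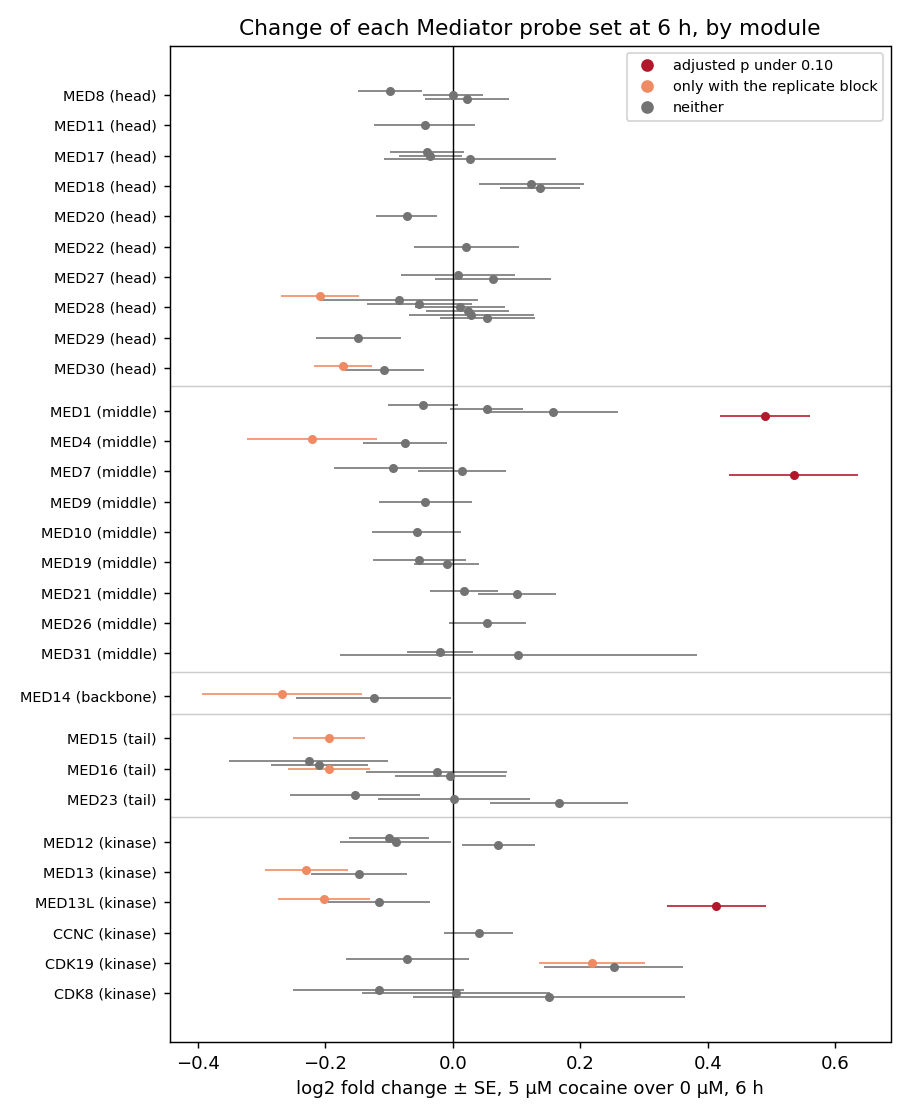
Log2 fold change of each of the 67 Mediator probe sets between 5 and 0 μM cocaine at 6 h (x axis, with SE bars), by gene and module from the head at the top to the kinase module at the bottom. Red marks the 3 probe sets at an adjusted p under 0.10 (MED1, MED7 and MED13L) and orange the 9 called only with the replicate block, 8 of which had negative changes.

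The 9 probe sets called only with the replicate block were 8 with lower and 1 with higher signal at 5 μM. MED13 201987_at had 11.17, 11.34 and 11.30 at 0 μM, 10.98, 11.12 and 11.12 at 1 μM and 11.00, 11.05 and 11.07 at 5 μM at 6 h, so that both doses lay below the untreated arrays. Its change at 5 μM was -0.23 (SE 0.0652), with an adjusted p of 0.138 in limma and of 0.0304 with the block. The change of MED15 222175_s_at, a tail subunit bound by activators, was -0.19 (SE 0.0567), with 7.29, 7.20 and 7.27 at 5 μM against 7.51, 7.42 and 7.43 at 0 μM and adjusted p of 0.143 and 0.0389 with the block. In each of these pairs of groups the arrays did not overlap.

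MED30 227786_at, of the head, was 8.71, 8.76 and 8.72 at 5 μM against 8.88, 8.92 and 8.91 at 0 μM, a change of -0.17 (SE 0.0452, adjusted p = 0.117, and 0.0444 with the block). MED16 221938_x_at, of the tail, was 6.69, 6.59 and 6.58 at 5 μM against 6.94, 6.75 and 6.75 at 0 μM, a change of -0.19 (SE 0.0643, adjusted p = 0.183, and 0.0587 with the block). MED28 222635_s_at, MED4 222438_at and MED13L 212207_at had changes of -0.21, -0.22 and -0.20, with adjusted p of 0.0412, 0.0556 and 0.0531 with the block. MED14 202611_s_at, of the backbone, was 8.70, 8.85 and 8.92 at 5 μM against 8.83, 9.23 and 9.22 at 0 μM, a change of -0.27 (SE 0.125, adjusted p = 0.318, and 0.0353 with the block).

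For MED14 202611_s_at the changes between same-numbered arrays were -0.13, -0.38 and -0.29, and array 1 was the lowest at each dose. Against untreated array 1 alone the mean at 5 μM differed by -0.01. MED13 201987_at changed by -0.17, -0.29 and -0.23 between same-numbered arrays and by -0.13 without untreated arrays 2 and 3. The changes of MED15 222175_s_at, MED16 221938_x_at and MED30 227786_at were -0.25, -0.32 and -0.15 without these arrays. Between same-numbered arrays, MED15 222175_s_at changed by -0.21, -0.22 and -0.15 and MED16 221938_x_at by -0.24, -0.17 and -0.17. MED30 227786_at changed by -0.17, -0.16 and -0.19.

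**Figure D4:**
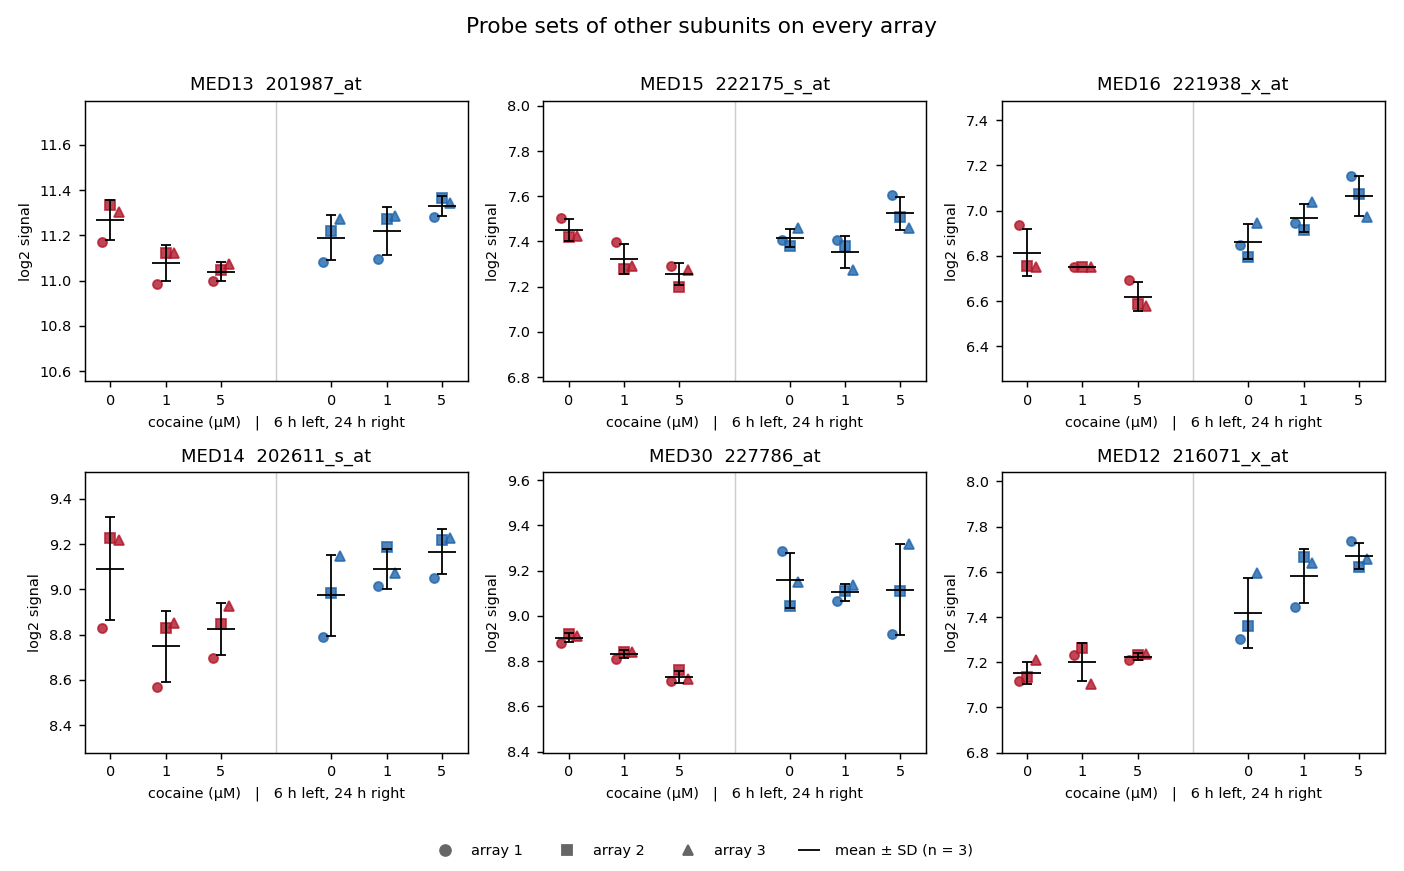
Log2 signal of 6 probe sets of MED13, MED15, MED16, MED14, MED30 and MED12 on each array, by cocaine dose in μM at 6 h (red) and 24 h (blue), with the mean ± SD of 3 arrays as black bars. At 6 h, MED13, MED15, MED16 and MED30 lie lower at 5 μM than at 0 μM on all arrays, and in MED14 the groups overlap at untreated array 1, at 8.83.

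The probe sets of the kinase module paralogs above the signal limit at 6 h had changes of both signs. CDK19 235226_at was 6.23, 6.23 and 6.29 at 5 μM against 5.90, 6.09 and 6.10 at 0 μM at 6 h, a change of 0.22 (SE 0.0834, adjusted p = 0.235, and 0.0628 with the block). CDK19 212897_at was 9.63, 9.90 and 9.78 at 5 μM against 9.59, 9.52 and 9.44 at 0 μM, with an adjusted p of 0.284 for a change of 0.25, and CDK19 212899_at changed by -0.07. The CDK8 probe sets 1553112_s_at, 1553113_s_at and 204831_at had changes of 0.15, 0.00 and -0.12, with adjusted p from 0.702 to 0.991. Both MED13 probe sets above the limit had negative changes, -0.23 for 201987_at and -0.15 for 201986_at, while those of MED13L above it ranged from -0.20 to 0.41. MED13 223780_s_at and 244611_at lay below the limit at 6 h and entered no test. Signals of 223780_s_at were 5.37, 5.26 and 5.29 at 5 μM against 5.24, 4.79 and 5.24 at 0 μM, with no overlap. Those of 244611_at were 3.56, 3.62 and 3.56 against 3.39, 3.25 and 3.56. In probe sets above the limit, CCNC, which encodes the cyclin partner of both kinases, changed by 0.04 (SE 0.0539) and MED12 by -0.10 to 0.07. No difference between paralogs was itself tested.

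Among the other subunits at 6 h, MED18 of the head had changes of 0.12 and 0.14 in its 2 probe sets, with adjusted p of 0.480 and 0.312. The head subunits MED8, MED11, MED17, MED20, MED22 and MED27 had changes between -0.10 and 0.06. MED29 changed by -0.15 (adjusted p = 0.304), and 6 of 7 kept probe sets of MED28 had changes between -0.08 and 0.05. In the middle module MED9, MED10, MED19, MED21 and MED26 had changes between -0.06 and 0.10. The tail subunit MED23, a partner of ELK1, had -0.15, 0.00 and 0.17 in its 3 kept probe sets.

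MED31 236241_at had the widest spread between replicate arrays of all member probe sets at 6 h, with a pooled SD of 0.406 beside a median of 0.0899 for the members and 0.106 for all probe sets. Its signals were 6.20, 7.11 and 7.19 at 0 μM, 6.71, 7.04 and 7.29 at 1 μM and 6.57, 7.01 and 7.22 at 5 μM, and array 1 was the lowest at each dose. The same held at 24 h, where array 1 had 6.57, 6.76 and 6.62 at 0, 1 and 5 μM and the other 6 arrays 6.88 to 7.11. The other kept MED31 probe set, 222867_s_at, changed by -0.02 at 6 h.

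At 6 h after 1 μM cocaine, no member probe set passed the test against untreated cells in limma, beside 0% of all probe sets. At an unadjusted p under 0.05 there were 12 members (17.9%), beside 14.3% of all probe sets. With the replicate block 5 were called higher and 7 lower, 17.9% of the members beside 12.5% of all probe sets (5.11% higher and 7.44% lower). The 5 were CDK19 235226_at, MED13L 212208_at, both MED1 225452_at and MED1 203496_s_at, and MED21 209363_s_at, with changes of 0.33, 0.27, 0.23, 0.27 and 0.20. The 7 were both kept MED14 probe sets, MED13L 212207_at and MED13L 212209_at, MED13 201987_at, MED28 222635_s_at and MED23 218846_at, with changes from -0.34 to -0.17. CDK19 235226_at was 6.25, 6.31 and 6.52 at 1 μM against 5.90, 6.09 and 6.10 at 0 μM, with no overlap, and MED14 202611_s_at was 8.57, 8.83 and 8.85 at 1 μM against 8.83, 9.23 and 9.22 at 0 μM, with array 1 the lowest at both doses. These comparisons use the same untreated arrays as those of 5 μM, so they are not separate evidence. Without untreated array 1 the fit without the block called 2 (2.99%, beside 4.28% of all probe sets).

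Between 5 and 1 μM at 6 h no member was called with or without the block, beside 0% of all probe sets, and 4 had an unadjusted p under 0.05 (5.97%, beside 6.45% of all). All 4 were higher at 5 μM. They were MED7 231272_at with 0.51 (SE 0.101, adjusted p = 0.543), MED23 242706_s_at with 0.39, CDK19 212897_at with 0.38 and MED1 225452_at with 0.26 (SE 0.0711, adjusted p = 0.619).

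At 24 h no member was called in any comparison of doses. For 5 against 0 μM this stood beside 0.0123% of all probe sets called, and 9 of 72 members had an unadjusted p under 0.05 (12.5%, beside 7.20% of all). For 1 against 0 μM the background was 0% and 3 members had such a p (4.17%, beside 3.37% of all), and for 5 against 1 μM it was 0.00823% and 5 members had one (6.94%, beside 6.12%). The replicate block called no member in any of the 3, beside 0.00823%, 0% and 0.00411% of all probe sets. The median change of members between 5 and 0 μM was 0.00, with 38 of 72 above 0, and between 1 and 0 μM it was 0.03, with 53 of 72 above 0, beside a median of 0.02 over all probe sets. On 10 member probe sets (13.9%) all arrays at 5 μM lay above all untreated ones and on 6 (8.33%) below, beside 5.94% and 4.51% of all probe sets.

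The smallest p among the members at 24 h was again that of MED1 225452_at, now with the opposite sign. Its signals were 9.18, 9.37 and 9.30 at 0 μM, 9.24, 9.23 and 9.14 at 1 μM and 9.02, 8.99 and 9.02 at 5 μM. All arrays at 5 μM lay below those of the other doses, with a change against 0 μM of -0.28 (SE 0.0621, adjusted p = 0.416, and 0.160 with the block). Within each array, 225452_at minus 203497_at shifted by -0.36 and 225452_at minus 225456_at by -0.33 between 5 and 0 μM, with no overlap (exact permutation p = 0.1, 2-sided, 0.4 after adjustment over 10 pairs). Against 203496_s_at the shift was -0.17 and the arrays overlapped (exact permutation p = 0.4, 0.625 after adjustment). The other MED1 probe sets 203496_s_at, 203497_at and 225456_at changed by -0.11, 0.08 and 0.06, with adjusted p from 0.855 to 0.913.

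In the kinase module at 24 h, all 3 kept probe sets of MED12, the subunit that activates the CDK8 kinase, had an unadjusted p under 0.05 and none passed after adjustment. MED12 214275_at, below the limit, entered no test, with 4.48, 4.62 and 4.72 at 5 μM against 4.66, 4.62 and 4.69 at 0 μM. MED12 216071_x_at was 7.73, 7.62 and 7.66 at 5 μM against 7.30, 7.36 and 7.59 at 0 μM, a change of 0.25 (SE 0.0909, adjusted p = 0.611), and 211342_x_at and 203506_s_at changed by 0.20 and 0.18. In the tail, MED16 43544_at was 9.07, 8.89 and 9.04 at 5 μM against 8.87, 8.73 and 8.78 at 0 μM, a change of 0.21 (SE 0.0655, adjusted p = 0.566), where its change at 6 h was 0.00. In the head, MED8 213126_at was 7.11, 7.22 and 7.11 at 5 μM against 7.30, 7.39 and 7.26 at 0 μM, a change of -0.17 (SE 0.0583, adjusted p = 0.595). MED14 202611_s_at was 9.05, 9.22 and 9.23 at 5 μM against 8.79, 8.98 and 9.15 at 0 μM, a change of 0.19 (SE 0.0978, adjusted p = 0.715). The ACTB 3′ to 5′ difference at 24 h was 0.93, 0.69 and 1.03 on the arrays at 5 μM, against 0.61, 0.49 and 0.65 on untreated arrays, and its part in these changes was not tested.

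Whether the change at 5 μM differed between the times was tested as the change at 6 h minus that at 24 h, over the 67 member probe sets kept at both times. In limma 2 were called with a positive difference and 3 with a negative one, 7.46% of the members beside 4.21% of all 22358 probe sets (1.97% positive and 2.24% negative). At an unadjusted p under 0.05 there were 16 (23.9%, beside 15% of all). With the block 3 were positive and 10 negative, 19.4% of the members beside 15.9% of all (6.44% and 9.46%). MED1 225452_at had a difference of 0.77 (SE 0.0914) with an adjusted p of 0.0017, and MED13L 212208_at one of 0.36 (SE 0.103) with an adjusted p of 0.0902. The other 3 MED1 probe sets were not called in this contrast, with or without the block.

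The 3 negative differences were those of MED16 221938_x_at at -0.40 (SE 0.0912, adjusted p = 0.0396), MED13 201987_at at -0.37 (SE 0.0967, adjusted p = 0.0663) and MED15 222175_s_at at -0.30 (SE 0.0785, adjusted p = 0.0643). In each the change was below 0 at 6 h, as given above, and above 0 at 24 h. MED16 221938_x_at was 7.15, 7.07 and 6.97 at 5 μM against 6.85, 6.79 and 6.95 at 0 μM at 24 h, a change of 0.20. MED13 201987_at was 11.28, 11.36 and 11.35 at 5 μM against 11.08, 11.22 and 11.27 at 0 μM, a change of 0.14 with arrays that did not overlap. MED15 222175_s_at was 7.60, 7.51 and 7.46 at 5 μM against 7.41, 7.38 and 7.46 at 0 μM, a change of 0.11. Neither time alone called these 3 probe sets without the block. Those called only with the block were MED7 231272_at, with a difference of 0.55, and 7 with negative differences from -0.46 to -0.19, of MED12, MED13, MED14, MED16, MED30 and, with 2 probe sets, MED13L. Without untreated arrays 2 and 3 of 6 h, MED13 201987_at had -0.27, MED15 222175_s_at -0.36, MED16 221938_x_at -0.52 and MED1 225452_at 0.73. Without untreated array 3 of 24 h, the array with high CYP26A1, MED1 225452_at had 0.76 (adjusted p = 0.00599) and MED13L 212208_at 0.34 (adjusted p = 0.151), and the other 3 were still called. With each array centred on its median, 3 of the 5 calls (7.46%, beside 3.52% of all probe sets) were positive and 2 negative. The count was 2 (2.99%) without array 2 of 5 μM at 6 h or untreated array 2 of 24 h, beside 2.12% and 2.27% of all. It was 3 (4.48%) without array 1 or 3 of 5 μM at 6 h, beside 2.81% and 2.42%. Array 1 of 5 μM at 24 h or untreated array 1 of 24 h left out also gave 3, beside 2.65% and 3.25%.

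**Figure D5:**
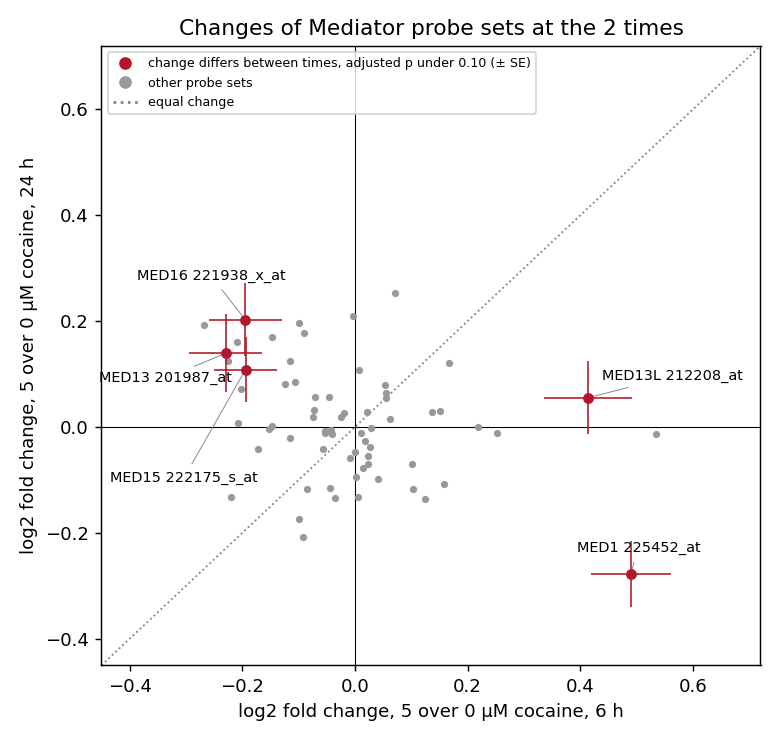
Log2 fold change between 5 and 0 μM cocaine of the 67 Mediator probe sets kept at both times, at 6 h (x axis) and 24 h (y axis). Red points with SE bars are the 5 whose changes differ between the times at an adjusted p under 0.10, the dotted line marks equal changes, and MED1 225452_at lies farthest from it, at 0.49 and -0.28.

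Genes that act beside Mediator at promoters were counted in the same fit of 5 against 0 μM at 6 h, where 1.42% of all probe sets were called lower. Among 19 probe sets of 12 RNA polymerase II subunits, none was called higher and 2 lower, POLR2K at -0.27 (SE 0.0573, adjusted p = 0.0797) and POLR2J at -0.21 (SE 0.0507, adjusted p = 0.0972). POLR2J is uncertain, since its probe set may also read near-identical copies of the gene. Among 50 probe sets of 28 general transcription factor genes 2 were called lower, GTF2F2 of TFIIF at -0.34 (SE 0.0709, adjusted p = 0.0761) and the TFIID subunit TAF2 at -0.34 (SE 0.0739, adjusted p = 0.0826). The elongation factor and CDK-activating kinase list, which also holds the cohesin loader gene NIPBL, had 44 probe sets of 23 genes. In it AFF4, the scaffold of the super elongation complex, was called lower at -0.35 (SE 0.0569, adjusted p = 0.047). The median changes of the 3 lists were 0.00, -0.02 and -0.03, beside -0.02 over all probe sets. The changes largest in size in the general transcription factor and elongation lists were positive and passed the test only with the block, 0.63 for TAF13 205966_at (SE 0.179, adjusted p = 0.136, and 0.0237 with the block) and 0.99 for NIPBL 242352_at, of the cohesin loader (SE 0.322, adjusted p = 0.178, and 0.0282 with the block). The other probe sets of these genes had changes from -0.08 to 0.10. With the block the lists had 0, 3 and 3 probe sets called higher and 3, 6 and 6 lower, or 15.8%, 18% and 20.5%, beside 18.6% of all. Without untreated arrays 2 and 3 the changes were -0.26 for POLR2K, -0.22 for POLR2J, -0.37 for GTF2F2, -0.26 for TAF2 and -0.35 for AFF4.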

How the data were processed

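The deposited values are log2 signals of Affymetrix U133 Plus arrays, which the authors normalised by RMA in 2 runs, one for the 9 arrays of each time. Versions are not given in the sources used here, and levels at 6 and 24 h were not compared. Labels of the 5 μM arrays also carry wording for untreated cells, and the stated dose was used. Probe sets were named from the platform annotation, with symbols updated through RefSeq (GRCh38.p14), which matched 41037 of 41091 single-symbol probe sets. Probe sets with several symbols were tested but not named, among them 1 that lists MED24.

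Doses were compared with limma 3.58.1 in R 4.3.3 (lmFit and eBayes, 9 arrays of a time), after removal of probe sets with a mean at or below log2(40) or no symbol. Benjamini-Hochberg adjustment ran over every kept probe set, with a threshold of 0.10. The contrast of times used all 18 arrays. Single differences were tested by exact permutation over arrays. The fit was also run on simulated data with independent noise on each array, so that run does not cover the correlation between same-numbered arrays. Plots were drawn with matplotlib 3.10.9.

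Deviations from the group means correlated between same-numbered arrays of different doses (0.377 to 0.768 at 6 h, 0.424 to 0.733 at 24 h) and less between others (at most 0.0711 at 6 h, 0.165 at 24 h). The number in the labels thus paired the arrays. The fits reported first have no replicate term, and the fit with the number as a block is given beside them.

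All MED1 probe sets, all called member probe sets, the smallest p per module at 6 and 24 h, the paralogs of the kinase module and up to 4 called genes per companion list and direction are named by rule. Others named were chosen after their values were seen. The members, lists and tests were chosen with earlier results of these data known. The number of arrays limits the precision. No 2 arrays held identical values.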

Additional observations from a re-analysis of the deposited data

Results flagged for a closer look

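For 5 probe sets the change between 5 and 0 μM at 6 h differed from that at 24 h, by a test of the difference itself in limma over 18 arrays. MED1 225452_at had a difference of 0.77, which passed the threshold in all 31 alternatives run, with values from 0.71 to 0.83. The other 3 MED1 probe sets were not called in this test. MED16 221938_x_at had -0.40, which passed in 29 of 30 alternatives and had an adjusted p of 0.117 with only the arrays of the 2 doses. MED15 222175_s_at had -0.30 and passed in 22 of 31. MED13 201987_at had -0.37 and passed in 17 of 32. MED13L 212208_at had 0.36 and passed in 11 of 32, with values from 0.22 to 0.45. All kept their sign in these alternatives, which are refits of the same arrays for probe sets picked by this test. The groups of 3 arrays are too small for a test of single outlying arrays.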

How the results depend on the processing

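For 5 against 0 μM at 6 h, 3 member probe sets were called (4.48%, beside 2.98% of all probe sets). The replicate block called 12 (17.9%, beside 18.6%) and array weights 11 (16.4%, beside 14.7%). An adjusted p under 0.05 called 1 (1.49%, beside 0.463%), and the brightest probe set of each gene 1 (3.45%, beside 0.804%). The fit without untreated arrays 2 and 3, an alternative chosen after seeing the data, is read by its changes, given above. Leaving out single arrays gave 0 to 7 calls: 7 without untreated array 1, 1 without untreated array 3, and 0 without untreated array 2 or any array at 5 μM. The share of all probe sets called was 10.8%, 0.294% and 0.129% without untreated arrays 1, 3 and 2. Without an array at 5 μM it was at most 0.387%. With single arrays left out, the changes of MED1 225452_at stayed between 0.44 and 0.53. For 1 against 0 μM, with no call, the block called 12 (17.9%, beside 12.5% of all) and array weights 5 (7.46%, beside 4.49%). Single arrays left out gave 0 to 2, the 2 (2.99%, beside 4.28% of all) without untreated array 1. For the difference between times, with 5 calls, the block called 13 (19.4%, beside 15.9% of all) and array weights 8 (11.9%, beside 7.81%). Only the arrays of the 2 doses called 1 (1.49%, beside 1.99%). With no signal filter 2 were called (2.25%, beside 1.41%), and with an adjusted p under 0.05 also 2 (2.99%, beside 1.95%). Only plain probe sets gave 2 (5.71%, beside 2.25%), and the brightest probe set of each gene 2 (7.14%, beside 2.65%). Single arrays left out gave 2 to 7, the 7 (10.4%, beside 6.07%) without untreated array 1 of 6 h. All other comparisons of members stayed at 0 calls.

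For RNA polymerase II subunits (2 calls, 10.5%, beside 2.98% of all probe sets), 1 was called with a filter at log2(20) (5%, beside 2.9%). With probe sets without a symbol or with median centring 1 was also called (5.26%, beside 2.64% and 2.65%). With no filter 0 were called, beside 1.59% of all, and with quantile normalization 0, beside 2.5%. The count was also 0 with only the arrays of the 2 doses (0.583% of all), an adjusted p under 0.05 (0.463%), only plain probe sets (1.05%) or the brightest probe set (0.804%). For general transcription factors (2 calls, 4%), the block called 9 (18%, beside 18.6% of all), array weights 8 (16%, beside 14.7%) and quantile normalization 1 (2%, beside 2.5%). With only the arrays of the 2 doses, an adjusted p under 0.05, only plain probe sets or the brightest probe set 0 were called, beside the shares of all just given for these settings. For the list of elongation and CDK-activating kinase genes, NIPBL included (1 call, 2.27%), the block called 9 (20.5%, beside 18.6% of all) and array weights 8 (18.2%, beside 14.7%). A filter at log2(20) gave 2 (3.45%, beside 2.9%) and no filter 2 (2.6%, beside 1.59%). With only the arrays of the 2 doses 0 were called, beside 0.583%. For the 3 lists, leaving out single arrays gave 0 to 2, 0 to 5 and 0 to 4. Without untreated array 1 of 6 h the counts were 2, 5 and 4 (10.5%, 10% and 9.09%, beside 10.8% of all).

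The shift of MED1 225452_at against 203497_at stayed between 0.40 and 0.45 at 6 h and between -0.39 and -0.30 at 24 h without single arrays. Among the named probe sets, signs turned in 4 changes that were not called in that comparison. MED16 43544_at at 6 h had 0.0232 with quantile normalization, 0.0123 with median centring, 0.0126 with array weights and -0.0384 to 0.0346 without single arrays. At 24 h, leaving out single arrays gave -0.21 to 0.0158 for MED1 203496_s_at, -0.0983 to 0.11 for MED7 231272_at and -0.14 to 0.0565 for MED30 227786_at.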
